A study of Mus musculus with 7 samples.

Results

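The genes described here are 10 brain-expressed genes of the mouse X chromosome: Armcx1, Armcx2, Armcx3, Gprasp1, Gprasp2, Tceal1, Tceal3, Tceal5, Tceal6 and Zcchc18. They are 10 of the 55401 genes in the count files, all passed the filter on low counts, and they lie within 2.28 Mb of each other, from base 134717963 to base 136998472 of chromosome X in the genome build mm10. They were chosen by their lower counts in mutant than in wild-type Purkinje cells, over all libraries and in the first library series alone. Their differences between the genotypes are therefore given as a description, with no p-value, and counts of calls among them only describe that choice.

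RNA was recovered with tagged ribosomes (RiboTag) from the cerebella of 4 nm3888-/- mice (Rpl22fl/+; PCP2-Cre; nm3888-/-) and 3 wild-type mice (Rpl22fl/+; PCP2-Cre), all 3 weeks old, with 1 mouse per library. All 7 mice carried the floxed Rpl22 allele, which adds a hemagglutinin tag to the ribosomal protein RPL22 where Cre is active, and PCP2-Cre, whose promoter drives Cre in Purkinje cells. The nm3888 allele is a spontaneous retroviral insertion in an intron of Rreb1, a zinc finger transcription factor gene, that arose on another strain and was backcrossed to C57BL/6J. The library names form series E, with mutants 1 and 2 and wild types 1 and 2, all female, and series RT, with male mutants 3 and 4 and female wild type 3. Series, sex and the aligner named in the file headers (Bowtie2 in series E and STAR in series RT) change together in the mutants, and their parts in a difference between the series cannot be told apart. Within series RT, sex and genotype cannot be told apart either. Mutants 1 to 4 and wild types 1 to 3 stand throughout for the libraries labelled with these genotypes.

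Total counts ranged from 18023017 to 107937386 per library. Rreb1 itself had 20.2, 19.1, 23.7 and 10.8 CPM (counts scaled to a fixed library size after TMM normalization) in mutants 1 to 4, against 17.7, 17.4 and 14.4 CPM in wild types 1 to 3. Mutants 1 to 3 lay above every wild type and mutant 4 below them. The count, which pools all transcripts of the gene, thus does not show the loss of the main brain transcript of Rreb1 that the study describes for this allele, and the directions below rest on the labels alone. The 23 Purkinje cell markers summed to 47380 to 62840 CPM in mutant and 51960 to 59370 CPM in wild-type libraries, and 22 of the 23 were not called. The one that was called is Slc32a1, the vesicular GABA transporter, which fell (log2 fold change −1.25, SE 0.10, adjusted p = 0.00014, edgeR quasi-likelihood F, adjusted by Benjamini-Hochberg). The 16 granule cell markers summed to 684 to 1434 CPM in mutant and 525.5 to 642.1 CPM in wild-type libraries, with 1 called, Calb2, which was higher in the mutant and was not called without wild type 3 (log2 fold change 0.48). The median log2 fold change of the tested markers was 0.51 in the granule cell list, 0.59 in that of Bergmann glia and astrocytes, 0.53 for oligodendrocytes, 0.63 for microglia, 0.42 for molecular layer interneurons and 0.34 for endothelial cells and pericytes, against −0.08 for Purkinje cells and 0.03 over all tested genes. At an unadjusted p under 0.05, 7 of 16 granule cell, 6 of 16 Bergmann glial and astrocytic and 10 of 18 oligodendrocyte markers were higher in the mutant, where DESeq2 called 2, 4 and 5 higher and edgeR 1, 2 and 2. Within series E the medians of these lists were 0.24, 0.22 and 0.29, and edgeR called 0 markers of any of them higher. It called 2 oligodendrocyte markers lower there, and 0 of the granule cell or the Bergmann glial and astrocytic markers. The Bergmann glial and astrocytic markers summed to 9875 to 14510 CPM in mutant and 8310 to 13570 CPM in wild-type libraries, and the oligodendrocyte markers to 743.1 to 1310 CPM in mutant and 568.4 to 808.5 CPM in wild-type libraries. No marker of the 7 cell type lists was at 0 in every library, and the part of other cell types in the values below was not tested. In such bulk samples, the count of a gene taken alone does not tell fewer Purkinje cells from less RNA per Purkinje cell. The study places this age before the onset of Purkinje cell degeneration, and the part of cell number was not tested.

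The Armcx, Gprasp, Tceal, Bex and Zcchc genes are specific to or expanded in mammals, and most of them lie in this stretch of the X chromosome and are expressed in neurons. Armcx proteins hold armadillo repeats and sit on the outer membrane of mitochondria, where Armcx1 and Armcx3 bind the machinery that moves mitochondria along axons. Gprasp proteins bind the tails of G protein-coupled receptors and sort them after endocytosis, and Tceal proteins resemble the transcription elongation factor S-II. Zcchc18 belongs to a group of genes that, like the Pnma genes, derive from the gag gene of retrotransposons.

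All 10 genes had lower mean CPM in the libraries labelled nm3888-/- than in those labelled wild type, at 21.9 to 67.7% of the wild-type mean. Percentages of the wild-type mean, here and below, pool both series and are not adjusted for series, which hold unequal shares of the genotypes. The log2 fold changes of the 10 genes from edgeR, with library series as a term, ran from −2.23 to −0.51 with a median of −1.09. The median of all 17621 tested genes was 0.03. Tceal3, Zcchc18, Tceal5, Tceal6 and Gprasp2 lay at 21.9 to 37.4% of the wild-type mean, and the other 5 genes at 56.3 to 67.7% of it. With an adjusted p under 0.05 as the call, 10 of the 10 genes were lower and 0 higher, a count that the choice of the genes fixes, and of all tested genes 5.95% were lower and 2.58% higher. Within series E, 7 of the 10 were called lower, all except Armcx1, Armcx3 and Tceal1, where 2.86% of 17048 tested genes were lower and 1.12% higher.

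**Figure D1:**
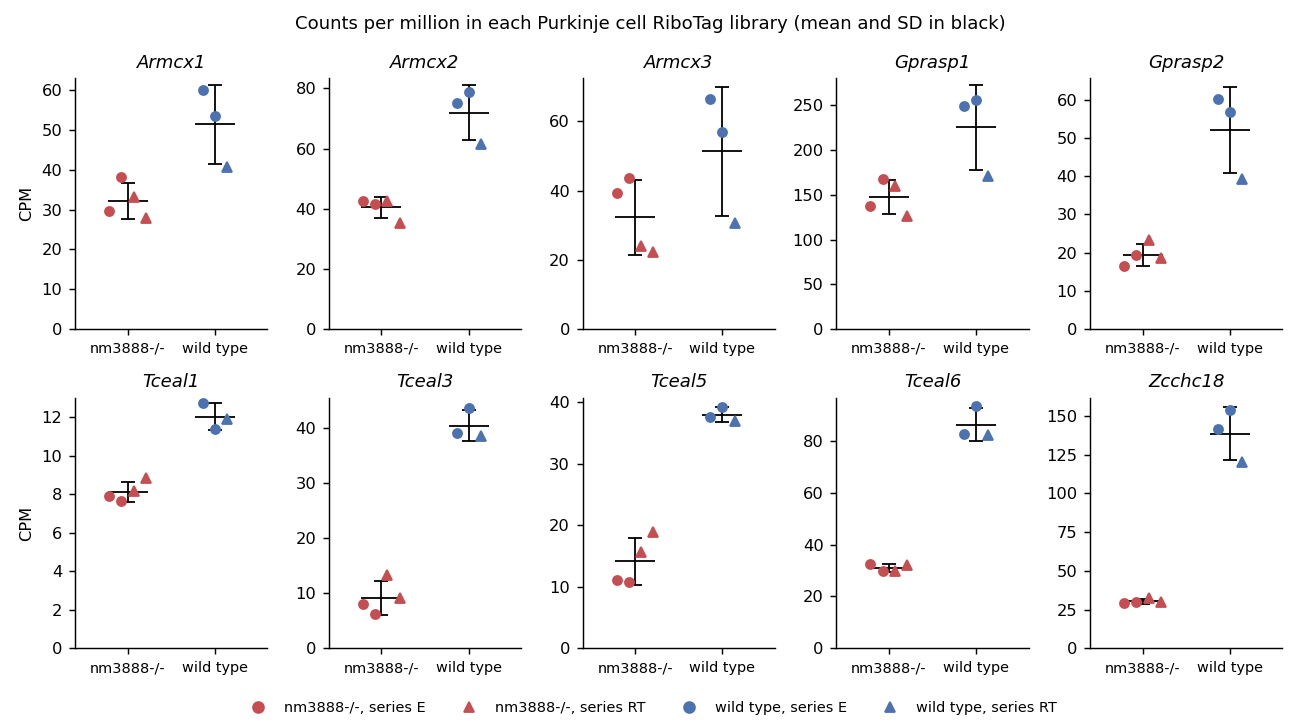
CPM (scaled counts, vertical axis, starting at 0) of the 10 genes in each library, with the libraries labelled nm3888-/- in red on the left and the wild-type libraries in blue on the right of each panel. Circles are series E, triangles series RT, and black lines the mean and SD. The groups do not overlap in 9 panels, and in Armcx3 mutants 1 and 2 lie above wild type 3.

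Zcchc18 (chrX:136993155-136998472, plus strand), a gag-derived zinc finger gene whose product is known in the mouse as an activator of BMP signaling through Smad proteins, had even values among the mutants. It measured 29.3, 29.7, 32.6 and 29.9 CPM in mutants 1 to 4, against 141, 154 and 120 CPM in wild types 1 to 3. Every mutant library lay far below the lowest wild-type library, and the SD over the 4 mutants was 1.47 CPM on a mean of 30.4 CPM. The log2 fold change was −2.17 (SE 0.11), and within series E it was −2.32 (SE 0.12). On the opposite strand Slc25a53, a mitochondrial carrier gene, overlaps Zcchc18 and runs past it. Slc25a53, named here after its values were seen, had 7.23, 7.90, 8.09 and 5.89 CPM in mutants 1 to 4 and 14.2, 13.2 and 10.9 CPM in wild types 1 to 3, and it fell (log2 −0.76, SE 0.15, adjusted p = 0.014, edgeR's quasi-likelihood test). Without wild type 1, 2 or 3 or mutant 2 it was not called, at −0.86 to −0.71 (adjusted p = 0.056 to 0.065). Counting was strand-specific per the file headers.

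Of the Tceal genes, Tceal3 (chrX:136590842-136668378, plus strand) lay beside Zcchc18 at the far end of the 10 genes, at 22.7% of the wild-type mean against 21.9% for Zcchc18. Its values were 8.02, 6.20, 13.4 and 9.10 CPM in mutants 1 to 4, against 39.1, 43.6 and 38.5 CPM in wild types 1 to 3. The highest mutant, mutant 3, was still far below every wild type. The log2 fold change was −2.23 (SE 0.21), and within series E −2.55 (SE 0.17).

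Tceal5 (chrX:136200948-136203876, minus strand) had 11.2, 10.8, 15.6 and 18.9 CPM in mutants 1 to 4, against 37.7, 39.3 and 37.0 CPM in wild types 1 to 3. Both mutants of series RT were above both mutants of series E, while the 3 wild types lay close together. Its log2 fold change was −1.52 (SE 0.16), and in series E alone −1.81 (SE 0.13).

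Tceal6 (chrX:135208687-135210687, minus strand) had 32.6, 29.7, 29.8 and 32.2 CPM in mutants 1 to 4, against 82.6, 93.4 and 82.2 CPM in wild types 1 to 3. Its mutant libraries were as even as those of Zcchc18, and its log2 fold change of −1.46 (SE 0.09) was nearly that of series E alone, −1.50 (SE 0.13). Tceal1 (chrX:136707982-136711478, plus strand), a nuclear phosphoprotein gene linked in humans to a neurodevelopmental disorder, had the lowest counts of the 10 genes in the wild type. It measured 7.91, 7.63, 8.15 and 8.83 CPM in mutants 1 to 4, against 12.8, 11.4 and 11.9 CPM in wild types 1 to 3. The groups did not overlap, and the log2 fold change was −0.57 (SE 0.12).

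Tceal3, Tceal5 and Tceal6 are close copies of each other, so reads from one can be counted for another. Their coding sequences in the reference annotation each hold 600 bases in 1 exon, and Tceal3 and Tceal6 share 98.2% of the aligned bases, Tceal3 and Tceal5 87.6%, and Tceal5 and Tceal6 87.5%. Tceal1 is more distant, at 46.0 to 47.1% identity to the 3 copies. The first 60 coding bases (GENCODE M21, mm10) are shown because they show where a read can tell the copies apart, with capitals at the 18 positions where the 3 genes are not all alike. They lie at chrX:136667537-136667596 (plus strand) for Tceal3, chrX:136201728-136201787 (minus strand) for Tceal5 and chrX:135209485-135209544 (minus strand) for Tceal6.
Tceal3: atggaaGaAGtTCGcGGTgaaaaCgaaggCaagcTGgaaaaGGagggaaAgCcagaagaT
Tceal5: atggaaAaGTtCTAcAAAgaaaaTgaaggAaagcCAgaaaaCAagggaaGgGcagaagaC
Tceal6: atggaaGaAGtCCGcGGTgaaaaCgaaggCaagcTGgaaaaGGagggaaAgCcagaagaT
In these bases Tceal3 and Tceal6 differ at 1 position, Tceal3 and Tceal5 at 18, and Tceal5 and Tceal6 at 17.

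Of all stretches of 100 bases, the read length in the methods, in the annotated transcripts of Tceal3, 5.14% also occur in another gene, and the share is 15.6% for Tceal5 and 20.2% for Tceal6. Because such reads cannot be assigned, the 3 genes were also summed. The sum was 51.8, 46.7, 58.8 and 60.2 CPM in mutants 1 to 4, against 159, 176 and 158 CPM in wild types 1 to 3. The summed level in the mutants was 33.1% of the wild-type mean. This value does not depend on how the counted reads were split between the copies. Any shared reads that were left uncounted are missing from it, and their part was not tested.

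Gprasp2 (chrX:135839034-135844730, plus strand) had the largest difference outside the Tceal genes and Zcchc18. It measured 16.4, 19.4, 23.3 and 18.5 CPM in mutants 1 to 4, against 60.02, 56.7 and 39.1 CPM in wild types 1 to 3. Wild type 3 of series RT stood well below the other wild types, and every mutant was below it. In edgeR the log2 fold change was −1.38 (SE 0.18), and within series E −1.70 (SE 0.14).

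Gprasp1 (chrX:135742733-135803474, plus strand), which is known to send delta opioid and D2 dopamine receptors to lysosomes, had more counts than any other of the 10 genes. Its values were 137, 168, 159 and 127 CPM in mutants 1 to 4, against 249, 256 and 171 CPM in wild types 1 to 3. The groups came close, since mutant 2 was just below wild type 3. The log2 fold change was −0.54 (SE 0.14), and within series E −0.72 (SE 0.13).

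Gprasp1 and Gprasp2 overlap annotated transcripts of their neighbors on the same strand. Gprasp1 shares its annotated start with Armcx5, and Bhlhb9 spans Gprasp2 and the end of Gprasp1. Of the 100-base stretches of Gprasp1, 6.60% also occur in transcripts of another gene, and of those of Gprasp2 7.58%. Summed over Gprasp1, Gprasp2, Armcx5 and Bhlhb9, the values were 193, 241, 229 and 182 CPM in mutants 1 to 4, against 381, 384 and 254 CPM in wild types 1 to 3, and the mutant mean was 62.1% of the wild-type mean. This percentage pools both series, and wild type 3 of series RT stood well below the other wild types and closer to the mutants.

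The Armcx genes had smaller differences. Armcx2 (chrX:134804145-134809221, minus strand) had 42.5, 41.6, 42.6 and 35.2 CPM in mutants 1 to 4, against 75.2, 78.8 and 61.5 CPM in wild types 1 to 3. Mutants 1 to 3 were nearly alike, mutant 4 was lower, and none came near the wild types. This gave a log2 fold change of −0.79, SE 0.10, and within series E −0.87 (SE 0.11).

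Armcx1 (chrX:134717963-134721917, plus strand), whose product is known in mice to promote mitochondrial transport and axon regrowth, had 29.7, 38.1, 33.2 and 27.8 CPM in mutants 1 to 4, against 59.9, 53.5 and 40.6 CPM in wild types 1 to 3. The groups did not overlap, and came closest in mutant 2 and wild type 3. Their log2 fold change was −0.61 (SE 0.13), and within series E −0.74 (SE 0.15).

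Armcx3 (chrX:134756595-134761455, plus strand), whose product binds the mitochondrial adaptors Miro1 and Trak2, was the gene of the 10 in which the groups overlapped. Its values were 39.3, 43.7, 24.0 and 22.3 CPM in mutants 1 to 4, against 66.6, 56.9 and 30.7 CPM in wild types 1 to 3. All libraries of series RT were below all libraries of series E, and within each series the mutants were below the wild types. With series as a term the log2 fold change was −0.51 (SE 0.10), and within series E it was −0.57 (SE 0.13).

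Counted over the genes, every mutant library was below every wild-type library in 9 of the 10, against 8.92% of all tested genes. Within series E both mutants were below both wild types in 10 of the 10, against 24.2% of tested genes, and within series RT both mutants were below the single wild type in 10 of the 10, against 34.7%. These counts come from the values that chose the genes. Against the wild-type mean of their own series, mutant 1 ranged from −2.37 to −0.61 on the log2 scale over the 10 genes, mutant 2 from −2.74 to −0.50, mutant 3 from −1.89 to −0.10 and mutant 4 from −2.08 to −0.43. The value nearest to 0 was that of Gprasp1 in mutant 3.

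**Figure D2:**
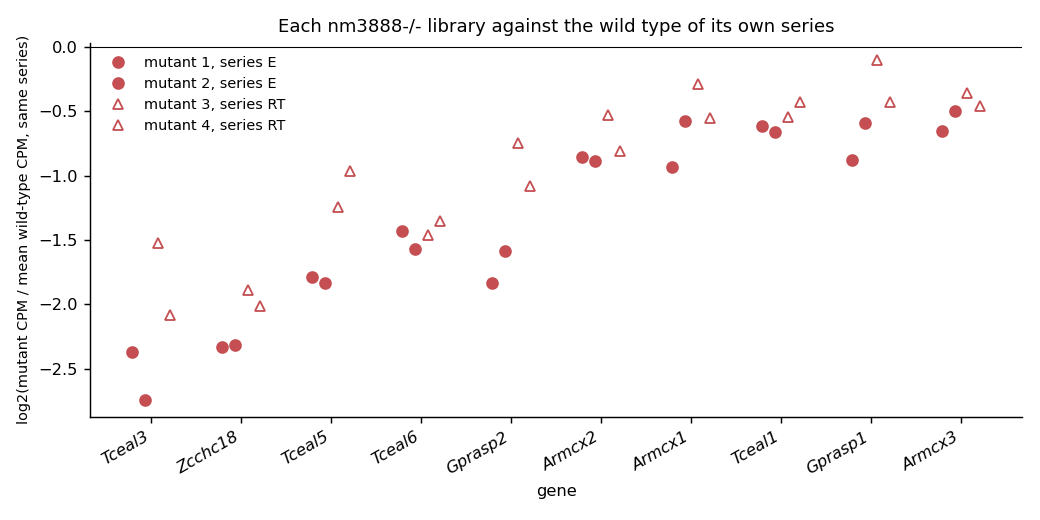
Log2 ratio of the CPM of each nm3888-/- library to the mean wild-type CPM of its own series (vertical axis), for each of the 10 genes (horizontal axis). Filled circles are mutants 1 and 2 of series E and open triangles mutants 3 and 4 of series RT, whose reference is 1 library. Every point lies below 0, from −2.74 (Tceal3, mutant 2) to −0.10 (Gprasp1, mutant 3).

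In 10 of the 10 genes the mutants of series RT lay on average closer to their wild type than those of series E, as the plot of each mutant against its own series shows. The series by genotype term was above 0 in 10 of the 10 genes, with a median of 0.35 on the log2 scale, against a median of 0.02 over all tested genes, of which 52.3% were above 0. Series E is one of the contrasts that chose the genes, so this is a description. By the edgeR quasi-likelihood F, adjusted by Benjamini-Hochberg, the term was called in 0 of the 10 genes and in 0.0795% of tested genes (14). At an unadjusted p under 0.05 it held 3 of the 10 genes and 1017 of all tested genes, and DESeq2 called 0 of the 10 and 81 of all.

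The difference between the series, with genotype as a term, was not used to choose the genes. Armcx3 was lower in series RT than in series E by a log2 difference of −0.91 (SE 0.11, adjusted p = 8.2e-05, edgeR quasi-likelihood F, adjusted by Benjamini-Hochberg). It was called in 1 of the 10 genes, where 22.9% of tested genes were lower and 22.9% higher in series RT. Of the 100-base stretches of Armcx3, 25.2% also occur in other genes, most of them in Gm9299, a gene of chromosome 7. Gm9299 had 9.96 and 11.5 CPM in mutants 1 and 2 and 16.2 and 15.1 CPM in wild types 1 and 2, and in series RT 0.13 and 0.15 CPM in mutants 3 and 4 and 0.12 CPM in wild type 3. Its part in the values of Armcx3 was not tested. For the other 9 genes the series differences ran from −0.29 (Armcx1, SE 0.13) to 0.36 (Tceal5, SE 0.16) on the log2 scale, and none was called.

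Per kilobase of counted exon, the levels can be set beside each other between genes, with a limit. The share of 100-base stretches that also occur in other genes differs, from 0.0% in Armcx1 to 25.2% in Armcx3. Gprasp1 and Gprasp2 also overlap neighbors on the same strand. The effect of this on the order of levels was not tested. In the mutant, Tceal6 was highest with 27.9 ± 1.39 CPM per kb (SD, n = 4), followed by Gprasp1 with 18.2 ± 2.35, Tceal5 with 11.2 ± 3.07, Armcx1 with 9.97 ± 1.41, Armcx3 with 9.13 ± 3.04, Armcx2 with 8.93 ± 0.78, Zcchc18 with 6.23 ± 0.30, Gprasp2 with 4.28 ± 0.64, Tceal1 with 2.90 ± 0.18 and Tceal3 with 2.59 ± 0.86 CPM per kb. In the wild type the order of levels was Tceal6 with 77.3 ± 5.69 CPM per kb (SD, n = 3), Tceal5 with 30.1 ± 0.97, Zcchc18 with 28.4 ± 3.48, Gprasp1 with 27.7 ± 5.81, Armcx1 with 15.9 ± 3.05, Armcx2 with 15.9 ± 2.02, Armcx3 with 14.5 ± 5.26, Gprasp2 with 11.4 ± 2.47, Tceal3 with 11.4 ± 0.80 and Tceal1 with 4.29 ± 0.25 CPM per kb. Tceal6 stood clear of its neighbor in both genotypes, and in the wild type so did Tceal1, while Tceal5, Zcchc18 and Gprasp1 did not differ in the wild type beyond their spread, nor did the 3 Armcx genes in either genotype. Zcchc18 was at about the level of Gprasp1 in the wild type, above the Armcx genes, and below the Armcx genes in the mutant.

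**Figure D3:**
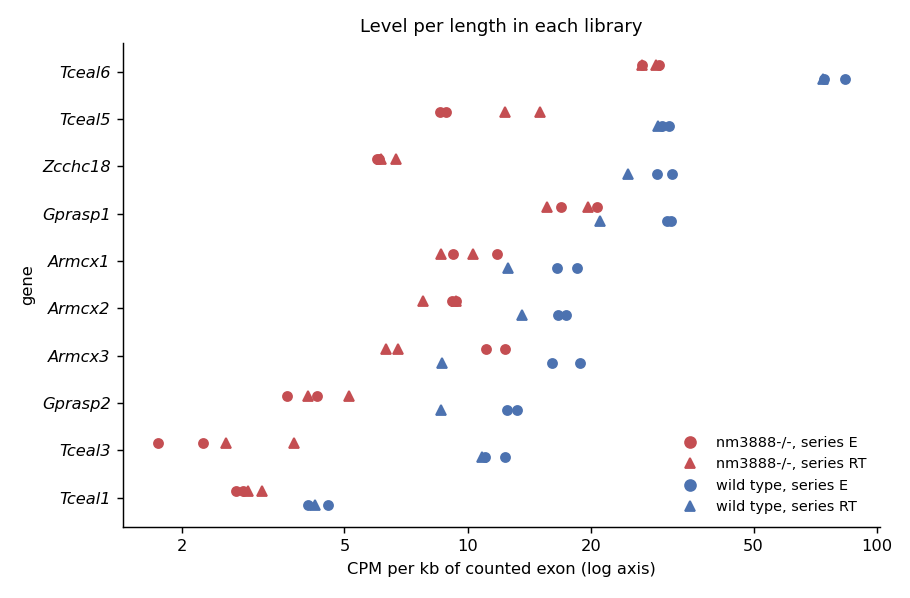
Level of the 10 genes in CPM per kilobase of counted exon (horizontal log axis), with the libraries labelled nm3888-/- in red above the wild-type libraries in blue for each gene and genes ordered by their wild-type mean. Circles are series E and triangles series RT. Tceal6 is highest in both genotypes, and Zcchc18 lies at 6.02 to 6.68 CPM per kb in the mutants and 24.7 to 31.6 CPM per kb in the wild types.

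Of 21 other genes of the same families, 18 passed the filter on low counts, 1 rose, 1 fell and 16 were not called, where 2.58% of all tested genes rose and 5.95% fell, and their median was −0.09 (log2). That the calls of the 10 and of their relatives fall apart is in part set by how the 10 were picked. Zcchc12, the closest relative of Zcchc18 with 77.2% of coding bases alike and a BMP signaling gene as well, had 7.02, 5.84, 8.32 and 7.46 CPM in mutants 1 to 4, against 3.60, 2.29 and 3.21 CPM in wild types 1 to 3. Every mutant was above every wild type, and it rose (log2 fold change 1.20, SE 0.19, adjusted p = 0.0065, edgeR's quasi-likelihood test). Without wild type 3 its log2 fold change was 1.12 and it was not called (adjusted p = 0.061). Zcchc12 lies outside the cluster, at chrX:36195904-36199158.

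Pnma2 on chromosome 14, a gag-derived gene that is the target of antibodies in paraneoplastic neurological disease, had 2.62, 1.73, 2.31 and 1.97 CPM in mutants 1 to 4, against 6.20, 6.01 and 5.77 CPM in wild types 1 to 3. It fell (log2 fold change −1.48, SE 0.18, adjusted p = 0.0018, edgeR's quasi-likelihood test), and its groups did not overlap. The other gag-derived genes did not pass, with log2 fold changes of 0.50 for Pnma3 (adjusted p = 0.11), 0.65 for Pnma5, −0.07 for Pnmal1, −0.26 for Pnmal2 and −0.10 for Moap1.

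Of the Armcx relatives, Armcx4 had a log2 fold change of −0.07, Armcx5 −0.34 (adjusted p = 0.080), Armcx6 −0.10 and the autosomal Armc10 0.12, none of them called by edgeR's quasi-likelihood test. Bhlhb9, the third gene with a Gprasp-type repeat region, had a log2 difference of −0.47 (SE 0.21, adjusted p = 0.22), with mutant 3 at 33.0 CPM above wild type 3 at 29.2 CPM. Among the Tceal and Bex genes, Tceal8 had 0.02, Tceal9 0.04, Bex1 0.24, Bex2 −0.20 and Bex4 −0.14. Bex3, which binds the neurotrophin receptor p75, had −0.41 (SE 0.11, adjusted p = 0.065), with 99.5 to 133 CPM in the mutants and 145 to 160 CPM in the wild types, and it was called without mutant 4 (−0.48, adjusted p = 0.033). Bhlhb9, Bex3 and Armcx5 are thus the relatives just outside the 10, whose smallest difference was that of Armcx3, and Tceal7, Bex6 and Pnma1 had too few counts to be tested.

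**Figure D4:**
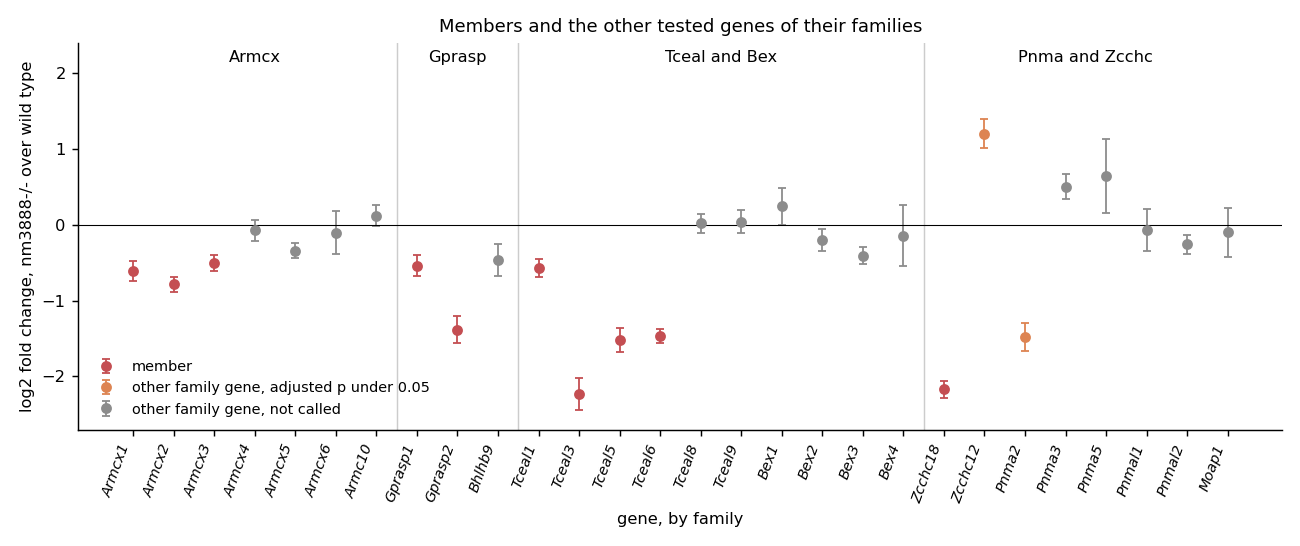
Log2 fold change of nm3888-/- over wild type (vertical axis, edgeR with series as a term, bars are the SE) of the 10 genes in red and the other tested genes of their families, in orange where called and gray where not, grouped by family. The 10 genes run from −2.23 to −0.51, Zcchc12 is at 1.20 and Pnma2 at −1.48.

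Between the first and the last of the 10 genes lie 88 other annotated genes, of which 18 passed the filter. By edgeR 3 of the 18 fell, 0 rose and 15 were not called, where 5.95% of all tested genes fell and 2.58% rose. At an unadjusted p under 0.05, 6 were lower and 0 higher, and DESeq2 called 4 lower and 0 higher. The median log2 difference of the 18 was −0.17. The 3 that fell by edgeR are Arxes1, Arxes2 and 3632454L22Rik. Arxes1 and Arxes2 are near-identical retrogenes known in mouse fat cell differentiation. Reads from one can therefore be counted for the other, and the split between them was not tested. Arxes1 had 31.3, 36.9, 13.5 and 15.1 CPM in mutants 1 to 4, against 51.5, 54.2 and 24.1 CPM in wild types 1 to 3, a log2 difference of −0.68 (SE 0.10, adjusted p = 0.0045). Arxes2 had 30.3, 30.6, 14.1 and 10.95 CPM in mutants 1 to 4, against 53.2, 47.1 and 18.9 CPM in wild types 1 to 3, a log2 difference of −0.67 (SE 0.11, adjusted p = 0.0086). Both were lower in series RT than in series E, and within each series the mutants were below the wild types. The transcript 3632454L22Rik was scarce, with 6 to 19 counts in the mutants and 17 to 93 counts in the wild types, and a log2 difference of −1.59 (SE 0.30, adjusted p = 0.013). Without wild type 3, 3632454L22Rik (−1.71, adjusted p = 0.10) and Arxes1 (−0.63, adjusted p = 0.052) were not called, nor was 3632454L22Rik without mutant 2 (−1.51, adjusted p = 0.051), and without wild type 1 the count that rose was 1.

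Several neighbors of genes with large differences were not called. Tceal8, at 26.7, 25.9, 24.6 and 32.8 CPM in mutants 1 to 4 and 27.8, 27.1 and 26.1 CPM in wild types 1 to 3, lies next to Tceal5 among the tested genes, on the same strand. Rab9b, a gene for a small GTPase of endosomal transport, lay at −0.55 on the log2 scale (adjusted p = 0.073, edgeR's quasi-likelihood test). Morf4l2 lay at −0.19. The difference in Rab9b was no smaller than those of Armcx3 (−0.51) and Gprasp1 (−0.54), which are among the 10 genes. Within each series the mutants were below the wild types in Rab9b as well. Rab9b is thus set apart from these genes by the call and not by the size of its difference. Over the whole X chromosome, 49 of the other 706 tested genes fell and 7 rose, with a median log2 fold change of 0.02, and over the autosomes 990 of 16882 fell and 448 rose, with a median of 0.03. Of the 8 tested genes known to escape X inactivation edgeR and DESeq2 called 0, and 1 was lower at an unadjusted p under 0.05.

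**Figure D5:**
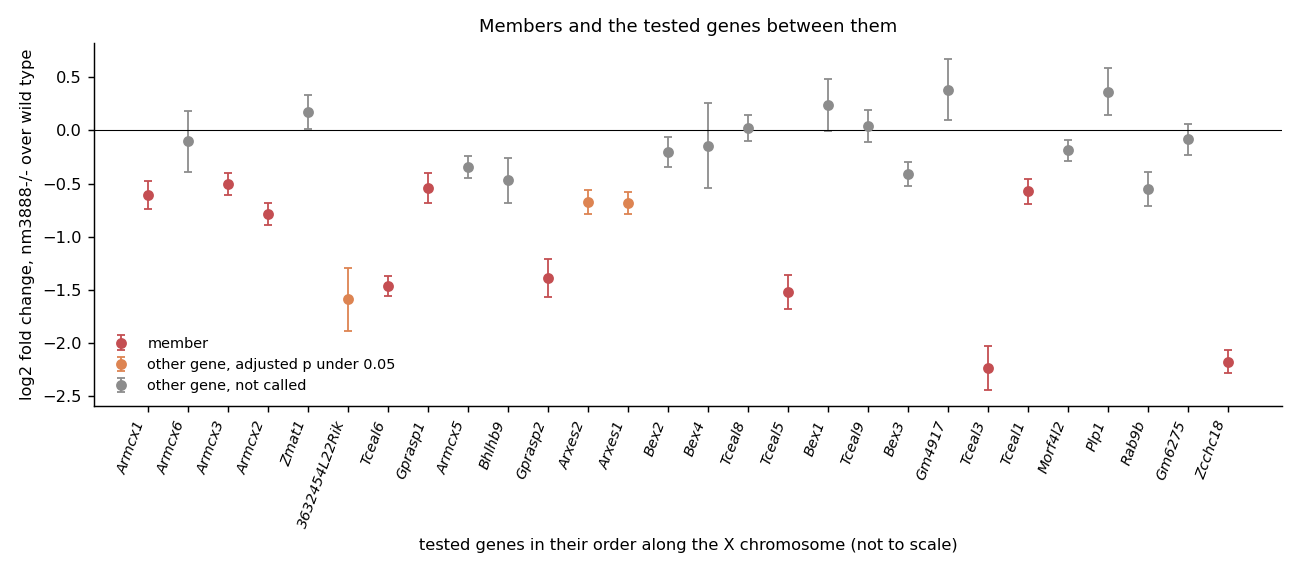
Log2 fold change of nm3888-/- over wild type (vertical axis, edgeR with series as a term, bars are the SE) of the 10 genes in red and the 18 tested genes between them, in orange where called and gray where not, in their order along the X chromosome. Tceal9, with a fold change near 0, lies between Tceal5 (−1.52) and Tceal3 (−2.23). Tceal8, also near 0, lies next to Tceal5 on its other side.

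The promoters of several of the 10 genes hold a common stretch. RefSeq promoter windows of 300 bases (250 before and 50 after the start, build GRCm38.p6) were matched for 9 of the 10 genes. The 8-base run held by most of them, searched on both strands, is TCACGTGA, a palindrome around the E-box CACGTG, in 5 of the 9 windows (Armcx1, Tceal1, Tceal3, Tceal5 and Tceal6) and in 0.974% of all 32851 windows. Before it, on the gene's strand, each of the 5 has TGACG, with 6 bases between (8 in Tceal1). Of the 319 such sites with 22 bases before them in all windows, 15 have TGACG in those bases, and 8 of the 15 belong to the families described here. The 30 bases that end with the run are shown for the 5 genes and, for comparison, for Armcx6 and Tceal8, which were not called, with both runs in capitals. Their positions are chrX:134717912-134717941 (plus strand) for Armcx1, chrX:136707958-136707987 (plus) for Tceal1, chrX:136666355-136666384 (plus) for Tceal3, chrX:136203893-136203922 (minus) for Tceal5, chrX:135210695-135210724 (minus) for Tceal6, chrX:134751439-134751468 (minus) for Armcx6 and chrX:136172228-136172257 (minus) for Tceal8.
Armcx1: gatctcactggTGACGtgccccTCACGTGA
Tceal1: gcccagctgTGACGcgctccccTCACGTGA
Tceal3: gcgagctcgggTGACGcggtgtTCACGTGA
Tceal5: gagcccactggTGACGttcctgTCACGTGA
Tceal6: tttagctagggTGACGctttgcTCACGTGA
Armcx6: gagcttactggTGACGtggctgTCACGTGA
Tceal8: gagctcattgaTGACGcgatccTCACGTGA
Among the 12 other genes of the Armcx, Gprasp, Tceal, Bex and Zcchc families searched, 4 hold TCACGTGA (Armcx6, Tceal7, Tceal8 and Bex3), of which Tceal7 was not tested and the other 3 were not called. Armcx6 was scarce, with 17 to 72 counts per library and a log2 fold change of −0.10 (SE 0.29), so a difference in it could be missed. The letters were chosen from these windows after the genes were picked, and a match is no evidence of binding. Of the letters AACCACCC, part of the known RREB1 motif, there was no match in the 9 windows, against 0.874% of all windows. Of CAGATG, an E-box of the NEUROD1 type, there was none either, against 17.2%. So few windows would seldom hold a run as rare as AACCACCC, and its absence says nothing about RREB1 sites. Of the 12 other genes searched, 3 hold CAGATG (Tceal9, Bex2 and Zcchc12) and 0 hold AACCACCC.

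Genes of the processes in which the families are known to act were read against all tested genes, of which 5.95% fell and 2.58% rose. Of 23 tested genes of mitochondrial transport and dynamics 4 fell and 0 rose by edgeR, with a median of −0.11 on the log2 scale, where 2 were higher at an unadjusted p under 0.05 and DESeq2 called 1 higher. Snph, which anchors mitochondria to axonal microtubules, fell (log2 −0.62, SE 0.09, adjusted p = 0.0048), and Klc2, a kinesin light chain gene, fell (log2 −0.50, SE 0.10, adjusted p = 0.018), both by edgeR's quasi-likelihood test. Without wild type 3 neither was called, at −0.58 for Snph (adjusted p = 0.056) and −0.44 for Klc2 (adjusted p = 0.15), and Klc2 was not called without wild type 2 (−0.47) or mutant 2 (−0.51) either. Of 16 genes of receptor desensitization and lysosomal sorting 1 fell and 0 rose by edgeR, with a median of −0.06, where 2 were higher at an unadjusted p under 0.05 and DESeq2 called 1 higher. It is Adcyap1r1, the receptor for the neuropeptide PACAP, with 30.8, 23.3, 30.2 and 25.96 CPM in mutants 1 to 4, against 71.3, 68.4 and 61.0 CPM in wild types 1 to 3 (log2 fold change −1.27, SE 0.13, adjusted p = 0.00055). Of 22 genes of S-II elongation factors and their partners edgeR called 0, with a median of 0.03, where 3 were higher at an unadjusted p under 0.05 and DESeq2 called 1 higher.

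The genes outside these families whose values over the 7 libraries were most like the mean of the 10, after centering within series, were Lurap1l, Cdh13, 5330434G04Rik, Astn1 and Zfp287, at Pearson correlations of 0.9986, 0.9982, 0.9981, 0.9979 and 0.9978. These are descriptions over 7 libraries that share the genotype split, out of 17621 genes ranked. Astn1, which encodes a neuronal adhesion protein of glial-guided migration, had 54.6, 57.1, 73.01 and 59.4 CPM in mutants 1 to 4, against 206, 222 and 189 CPM in wild types 1 to 3. The largest difference of the 5 was that of 5330434G04Rik, an X-linked transcript outside the cluster, at 0.73 to 1.04 CPM in the mutants and 6.43 to 13.6 CPM in the wild types. By the same measure the correlations of the 10 genes with their own mean ran from 0.92 (Gprasp1) to 0.996 (Zcchc18).

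Which of the 10 genes were called changed with the libraries and the terms used. These are the values that chose the genes, so the calls are a description and no sign of stability. Without wild type 1, 2 or 3 or without mutant 2, 6 of the 10 genes were called, and Armcx1 (−0.74 to −0.53), Armcx3 (−0.57 to −0.42), Gprasp1 (−0.73 to −0.49) and Tceal1 (−0.64 to −0.51) were not. Gprasp1 was not called without mutant 1 (−0.42) or mutant 4 (−0.51) either, nor Armcx1 without mutant 4 (−0.58). When the replicate block replaced the series term, 6 of the 10 were called and the same 4 were not, and 571 of the tested genes were lower and 241 higher. Slc25a53, Klc2 and the markers Calb2, Hopx, Sept4, Cnp, Cldn11 and Ugt8a were not called with the block either. With sex in place of series as the term, 4 of the 10 were called (Tceal3, Tceal5, Tceal6 and Zcchc18), and 85 of the tested genes were called lower.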

How the data were processed

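The deposited values are raw counts of read pairs per gene, which the authors made by removing duplicates and trimming with fastp, aligning to mm10 and counting with featureCounts 2.0.1 (paired, both ends mapped, reverse-stranded, GENCODE M25, per the file headers). The headers point to Bowtie2 alignments in series E and STAR alignments in series RT, and the headers set no multi-mapping option. Of 55401 genes, 17621 passed filterByExpr and were tested with edgeR 4.0.16 (limma 3.58.1, R 4.3.3) by the quasi-likelihood test after TMM, with series as a term, at an adjusted p (Benjamini-Hochberg) under 0.05. The methods name a batch without assigning libraries to it, so the series stands in for it. Each standard error was derived from the fold change and the F value. The test was checked on simulated counts. Alternatives were RLE and autosomal scaling, no filter, no series term, sex, a replicate block, DESeq2 1.42.0 and leaving out each library. The genes and gene lists were chosen with earlier results of these data known. Named are the 10 genes, all tested relatives, called neighbors, up to 2 called genes per direction of each other list and the 5 most alike genes. Coding sequence came from GENCODE M21. Replicate numbers recur across the genotypes, and deviations from the group means correlated at 0.91 to 0.96 within a number, but each number falls in 1 series, and within series E the correlation was 0.04.

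Glial and other markers were checked as lists. Of 16 Bergmann glial and astrocytic markers 2 rose (Gfap and Timp4) and 2 fell (Hopx and Sept4), of 18 oligodendrocyte markers 2 rose (Cnp and Cldn11) and 1 fell (Ugt8a), by edgeR, with more higher by DESeq2 and at an unadjusted p (4 and 6, and 5 and 10), and of the tested microglial (8), molecular layer interneuron (9) and endothelial (13) markers edgeR called 0, where DESeq2 called 1, 1 and 2 higher and 4, 2 and 3 were higher at an unadjusted p under 0.05. Without wild type 3 Gfap (log2 0.76), Timp4 (0.71), Hopx (−0.62), Sept4 (−0.36), Cnp (0.46) and Cldn11 (0.49) were not called. Timp4 was not without mutant 1 (0.89) either, nor Hopx without wild type 2 (−0.74) or mutant 2 (−0.86), nor Sept4 without wild type 1 or 2 or mutant 2 or 4 (−0.45 to −0.39). Cnp was not without wild type 2 or mutant 1, 3 or 4 (0.60 to 0.67), nor Cldn11 without wild type 2 or any 1 of the mutants (0.55 to 0.74), nor Ugt8a without wild type 1 (−0.77), wild type 2 (−0.78) or mutant 2 (−0.88). With the replicate block in place of series Hopx, Sept4, Cnp, Cldn11 and Ugt8a were not called (adjusted p = 0.055 to 0.11, edgeR).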

Additional observations from a re-analysis of the deposited data

Results flagged for a closer look

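Armcx2 had 1 mutant library apart from the others. Its CPM in mutant 4 was 35.2, against 41.6 to 42.6 in mutants 1 to 3, and the gap to the nearest library was 0.872 of the range, above Dixon's critical value for 4 samples at the 95% level. Of 28 genes checked in the mutant libraries this was the only one, and chance alone sets apart about 1 group in 20.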

How the results depend on the processing

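The median of the 10 genes' log2 fold changes was −1.09 over all libraries and −1.18 within series E, and no called value changed sign in any alternative run. With no series term 58 genes were called higher and 251 lower, 6 of the 10 genes were lower, and of their relatives 0 were higher, and 1 of the genes between the 10 was lower. With sex in place of series 17 genes were higher and 85 lower, with 4 of the 10 lower, 0 relatives higher, 0 lower and 0 of the genes between the 10 lower. With the replicate block in place of series 241 genes were higher and 571 lower, with 6 of the 10 lower, and within series E the block left 7 of the 10. The numbers follow the series, and within series E deviations of the same number correlated at 0.04. With no filter on low counts 731 genes were higher, 2 relatives lower and 5 of the genes between the 10 lower, and within series E 341 genes were higher and 739 lower, with 1 relative higher and 2 lower. DESeq2 called 794 genes higher, within series E 1 relative higher and 2 lower, and 81 genes by the series by genotype term, against 14 by edgeR. By the series term, RLE scaling called 2 of the 10 genes lower (Armcx3 and Armcx1).

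Leaving out 1 library at a time gave 173 to 434 genes higher and 426 to 991 lower over all libraries, with 6 to 10 of the 10 genes lower, 0 to 1 relatives higher, 1 to 2 relatives lower, and 0 to 1 higher and 1 to 4 lower of the genes between the 10. Within series E it gave 0 to 71 genes higher and 0 to 241 lower, 0 to 5 of the 10 genes lower and 0 relatives lower, with 0 of all genes in the fits without mutant 1 or mutant 2, where the lone mutant library is assumed to vary like the wild types. The cause of these changes was not tested, except that these fits have fewer samples. The depth of 18023017 counts in mutant 1 left 6 counts of 3632454L22Rik. In Tceal3, Tceal5 and Tceal6 the split of reads between the copies is uncertain.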
